A study of Mus musculus with 20 samples.

Results

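Keratin genes were described in mouse embryonic fibroblasts with and without PML, as RNA in 4 expression tables and as chromatin in 12 lists of regions called after chromatin immunoprecipitation (ChIP). The genes were taken by name, as every gene in the expression tables whose symbol is Krt followed by digits alone. This gave 48 genes, of which 45 had a line of their own among 22593 genes with their own line in all 4 tables. The other 3 (Krt81, Krt83 and Krt85) shared 1 line with 5430421N21Rik, had no value of their own and are not counted below. The shared line had an FPKM of 0 in both wild-type tables, 0.0129 in the numbered knockout table and 0.0641 in the unnumbered one. Letter-suffixed keratins such as Krt6a were left out by the naming rule.

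Keratins are the intermediate filament proteins of epithelia. A type I keratin pairs with a type II keratin to build the filament, and in the mouse the genes lie in a type I cluster on chromosome 11 and a type II cluster on chromosome 15. Fibroblasts build their filaments mainly from vimentin, and the Polycomb mark H3K27me3 is often found over silent developmental genes. H3K9me3 is the mark of constitutive heterochromatin, and H3.3 is a histone variant that can be deposited outside replication.

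Wild-type cells (WT) came from C57BL/6 mice and knockout cells (KO) from Pml-null mice on the same background. Both were cultured at passage 10 to 15, proliferating and otherwise untreated, and grown to confluency for ChIP. PML is the protein that organises PML nuclear bodies. ChIP was against H3K9me3, H3K27me3, total H3, PML, and tagged H3.3 (Flag in some cells, HA in others), 1 library each for WT and KO. Cells for tagged H3.3 had been transfected with it, so those libraries report introduced H3.3 in manipulated cells, whereas RNA came from non-transfected cells. RNA came as 3 numbered samples per genotype, which the authors pooled into 1 column, and as 1 unnumbered sample per genotype. Every value below is therefore from 1 library or 1 pooled table, no replicate error exists, and a difference between genotypes compares these libraries or tables. Nothing in the labels says whether the numbered samples were separate cultures or animals.

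The libraries differed in ways that touch the comparison. Pml itself stood at an FPKM of 15.0 (WT) and 10.2 (KO) among the numbered tables and at 7.62 and 4.22 among the unnumbered ones. The sources used here do not say which exons of Pml are deleted, so these levels do not check the labels. In the numbered pair the FPKM of Xist was 19.5 (WT) and 0.0517 (KO), and that of the Y-linked Ddx3y 0.0384 and 7.67, so sex and genotype cannot be told apart there. Both tables of the unnumbered pair held both genes. Fibroblast genes were abundant in all 4 tables, with the collagen gene Col1a1 between 990.2 and 3354 and Vim between 1528 and 2624. Thy1, a fibroblast surface marker, had an FPKM of at most 0.141 in the numbered tables against 209.8 and 120.3 in the unnumbered ones. Among epithelial markers, Cdh1 and Epcam were at or below 0.0265 and Krt5 and Krt14 at or below 0.0809 in every table. Other epithelial junction genes were higher, with Perp at 6.74 and 8.69 in unnumbered WT and KO, Pkp1 at 5.70 and 6.57 in numbered WT and KO, and Cldn1 at 1.99 in unnumbered WT. Macrophage markers were present in unnumbered WT, where the summed FPKM of 9 genes was 174 against 11.9 in KO. Their part in the keratin values was not tested.

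Most keratin genes were listed at or near 0. Of the 45, 23 were listed at 0 in all 4 tables, 5 were above 0 in all 4 (Krt7, Krt10, Krt19, Krt20 and Krt80), and 4 reached an FPKM of 1 in any table. By table, 1 to 3 members reached it, against 46.0% to 50.6% of all genes. FPKM, fragments scaled to transcript length and to the size of the library, accounts for length, so levels can be compared between genes of 1 table. By table, 8 members were above 0 in numbered WT, 20 in numbered KO, 11 in unnumbered WT and 13 in unnumbered KO. The share of all genes above 0 was 62.2%, 71.2%, 66.1% and 66.0% in the same order. The numbered KO table also listed 1309 genes between 0 and 0.01, against 434 in numbered WT and at most 8 in the unnumbered tables. More members above 0 in numbered KO thus came with more very low values of all genes, and how far the tables' depth differed was not tested.

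Krt19, the smallest keratin and a marker of simple epithelia, was the most abundant member in every table. Its FPKM was 1.33 (WT) and 9.53 (KO) among the numbered tables, and 1.15 and 4.81 among the unnumbered ones. Both KO values lay above both WT values. The FPKM ratio of KO over WT was 7.14 and 4.2, and the difference on the scale log2(FPKM + 1) was 2.17 and 1.44. Krt19 alone made up 66.6% of the summed keratin FPKM in numbered KO and 43.9% in unnumbered KO, against 54.0% and 24.4% in WT. Ranked from the highest difference, it stood at place 114 of 11055 genes by the numbered tables and 73 of 11687 by the unnumbered ones.

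Krt7, a type II keratin of simple and glandular epithelia, was the second highest member in unnumbered KO, but lay below Krt10 in the other 3 tables. The numbered tables gave an FPKM of 0.0744 (WT) and 0.361 (KO), and the unnumbered tables gave 0.697 and 3.03. KO was above WT within each pair, but numbered KO lay below unnumbered WT. The difference on the log2(FPKM + 1) scale was 0.34 and 1.25, although the FPKM ratios, 4.85 and 4.34, were similar. Only the second difference passed 2-fold on that scale, which understates the change of low genes.

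Krt80, a type II keratin of differentiating epithelia, stood at 0.399 FPKM (WT) and 2.21 (KO) in numbered cells, and at 0.275 and 0.510 in unnumbered cells. Both KO values were above both WT values. The differences were 1.20 and 0.24 on the log2(FPKM + 1) scale. Krt80 overlaps the annotated Gm35853 and Mir1941, and reads of overlapping genes may be shared between them.

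Krt10, a type I keratin of suprabasal epidermis, did not keep its direction. It stood at 0.592 FPKM (WT) and 1.10 (KO) in numbered cells, and at 1.09 and 0.812 in unnumbered cells. The differences were 0.40 and -0.21, both under 2-fold, and values of the genotypes overlapped across the pairs.

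**Figure D1:**
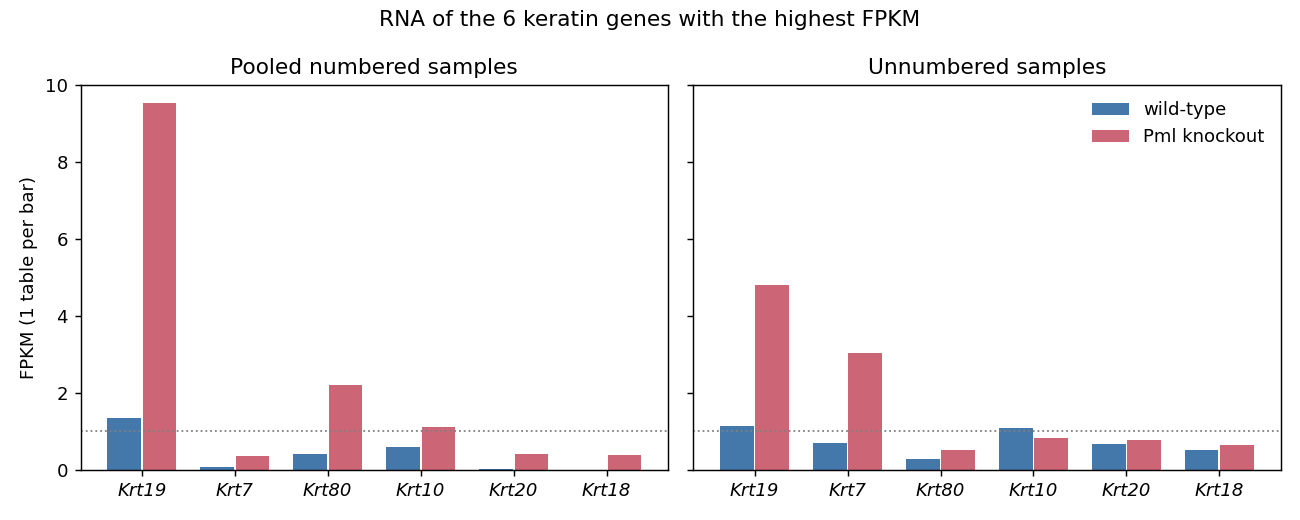
FPKM of the 6 keratin genes with the highest values, in the pooled numbered tables (left) and the unnumbered tables (right). Bars are single tables, blue for wild-type and red for Pml knockout, and the dotted line marks an FPKM of 1. Krt19 stands at 9.53 and 4.81 in knockout against 1.33 and 1.15 in wild-type, and no other keratin gene exceeds 3.03.

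The highest members that stayed under 1 were Krt20 and Krt18. Krt20, of intestinal and urothelial epithelium, had 0.0147 in numbered WT, 0.406 in numbered KO, 0.672 in unnumbered WT and 0.766 in unnumbered KO. Krt18, the simple-epithelial type I keratin that pairs with Krt8, was listed at 0 in numbered WT and had 0.373, 0.508 and 0.633 in the other 3 tables in the same order. Krt8 itself was listed at 0 in numbered WT and unnumbered KO and had 0.0377 in numbered KO and 0.0669 in unnumbered WT. Krt18 RNA was thus measured with hardly any RNA of its usual partner. All remaining members were at or below 0.110, the value of Krt16 in numbered KO.

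A member was compared where WT or KO of a pair reached an FPKM of 1, and 3 of 45 passed in each pair. In the numbered pair 2 of the 3 (Krt19 and Krt80) were at least 2-fold higher in KO and 0 lower, where 6.50% of 11055 genes were higher and 15.7% lower. In the unnumbered pair 2 of 3 (Krt19 and Krt7) were higher and 0 lower, against 1.74% and 3.83% of 11687 genes. A low gene passes this filter through the genotype where it is high, and the other members passed in neither. The summed FPKM of the numbered tables was unequal, at 948032 in WT and 409078 in KO. Scaling them to equal medians moved the median difference of all genes by 0.05. Scaling them to an equal total over all but ribosomal protein genes moved it by 0.73, and 11972 genes then passed the filter. The part of the unequal totals and that of ribosomal protein genes were not separated. With the equal total, the share of all genes called became 36% higher and 8.31% lower, and 5 keratin genes were higher, with Krt10, Krt18 and Krt20 added.

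By the tissues they are known from, RNA was almost wholly in 2 groups. The 6 simple-epithelial keratins (Krt7, Krt8, Krt18, Krt19, Krt20 and Krt23) summed to 1.42 FPKM (WT) and 10.7 (KO) in numbered cells, and to 3.09 and 9.24 in unnumbered cells. The 18 keratins of stratified epithelia summed to 1.03 and 3.56, and to 1.48 and 1.54. The 10 hair keratins and the 9 keratins of the inner root sheath of the hair summed to at most 0.0651 and 0.129 in any table. By filament type, the 26 type I genes, Krt18 among them, summed to 1.98, 11.7, 3.59 and 7.31 in numbered WT, numbered KO, unnumbered WT and unnumbered KO. The 19 type II genes summed to 0.488, 2.64, 1.11 and 3.65 in that order, so type I RNA exceeded type II RNA in all 4 tables.

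Genes that act with keratins in epithelia were next compared. Of 20 genes of epithelial junctions, 4 passed the filter by the numbered tables and 5 by the unnumbered ones, and 0 differed by 2-fold in either. The shares over all genes were 6.50% higher and 15.7% lower, and 1.74% and 3.83%, and with so few genes passing, counts of 0 or 1 in this list and the next 3 set none of them apart. The plakoglobin gene Jup, a desmosome component next to the type I cluster, was at 20.7 FPKM (WT) and 11 (KO) in numbered cells, and at 20.4 and 30.4 in unnumbered cells. Pkp2, a desmosomal plakophilin, was higher in KO in both by under 2-fold, at 4.92 and 9.15, and at 6.39 and 12.5. Of 13 epithelial transcription factors, 1 was higher in the numbered pair (Sox2, 0.0141 in WT and 2.97 in KO) and 1 lower in the unnumbered pair (Klf4, 41.5 and 18.7). Of 6 factors that drive epithelial-mesenchymal transition, 0 differed by 2-fold in either pair. The highest were Snai1 in the numbered pair, at 60.5 in WT and 36.6 in KO, and Prrx1 in the unnumbered pair, at 98.8 and 81.1.

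Other intermediate filament genes differed in direction among themselves. Of 15 genes, 6 passed in the numbered pair with 1 higher and 1 lower, and 7 by the unnumbered tables, again with 1 higher and 1 lower. Des, which encodes the desmin of muscle, was at 2.70 FPKM (WT) and 57.1 (KO) in numbered cells, and at 21.7 and 5.07 in unnumbered cells. Lmna, of the nuclear lamina, had 882.5 and 161.9, and then 285.8 and 354.6. Vim had 2624 and 1895, and then 1528 and 2137. Nes, which encodes nestin and is the gene called higher by the unnumbered tables, was higher in KO in both pairs, at 50.2 and 74.2, and then 6.88 and 15.2. Lmnb2, a B-type lamin gene, was lower in both by under 2-fold, at 16.8 and 13.4, and then 8.03 and 6.75.

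Markers of mesothelium, a simple epithelium that carries Krt7, Krt8, Krt18 and Krt19, had a summed level that was higher in KO in one pair and lower in the other. The summed FPKM of 6 markers was 1.25 (WT) and 6.26 (KO) in numbered cells, and 8.37 and 2.32 in unnumbered cells. Wt1 had 0.221 and 4.65, and then 0.481 and 0.268. Wt1 thus made up most of the numbered KO sum. Upk3b had 0.0673 and 0.144, and then 1.98 and 0.121, and Upk1b was lower in KO in both pairs, at 0.944 and 0.0216, and then 3.17 and 0.843. Krt19 was thus higher in KO both where this sum was higher and where it was lower, and a part of mesothelial cells in the keratin values was not tested. In bulk RNA, fewer cells of a type and less RNA per cell cannot be told apart. Of 51 keratin-associated protein genes with an FPKM line, which encode hair matrix proteins, 0 reached an FPKM of 1. Counted in the annotation instead, 23 genes of this family lie in the type I cluster. Of 9 cornified envelope genes, Sprr1a had 317.3 in numbered WT, 2.63 in numbered KO, 0.488 in unnumbered WT and 0.600 in unnumbered KO, lower in KO where Krt19 was higher in the numbered pair.

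The chromatin of the clusters was read from the called regions on mm10. The type I cluster was taken from the first base of Krt222 to the last base of Krt42, on chromosome 11 from 99232761 to 100269951 (1037 kb), and holds 25 members. The type II cluster was taken from Krt80 to Krt18, on chromosome 15 from 101348315 to 102032026 (684 kb), and holds 20 members, including Krt18, the type I gene that lies there. Members of a cluster share regions and are not independent of each other. No member was covered by PML in either genotype, against 12.3% of 21523 protein-coding genes in WT and 1.39% in KO, and no PML region lay in either cluster, while PML regions covered 15.6% of chromosome 11 and 13.7% of chromosome 15 in WT.

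H3K27me3 covered most of both clusters in both genotypes. In the type I cluster it covered 77.3% in WT and 70.6% in KO, where the whole chromosome had 42.7% and 40.1%. In the type II cluster it covered 94.0% and 85.0%, against 33.7% and 27% of the chromosome. Of the WT length, 88.9% in the type I cluster and 89.2% in the type II cluster was also called in KO. The longest WT region, 555 kb on chromosome 15 from 101418001 to 101973000, ran from inside Krt7 to inside Krt78. In KO a region of 548 kb from 101389001 to 101937000 took its place, beginning 29 kb further toward Krt80 and ending in Krt79.

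H3K9me3 covered more of both clusters in KO. It covered 4.44% of the type I cluster in WT and 38.7% in KO, and 6.44% of the type II cluster in WT and 73.6% in KO. The chromosomes as a whole went from 20.7% to 33.8% on chromosome 11 and from 18.7% to 19.3% on chromosome 15, and the analysed genome from 32.6% to 28.6%. In WT the 6 regions in both clusters were at most 36 kb long. In KO, 2 regions of 191 and 312 kb, on chromosome 15 from 101420001 to 101611000 and from 101624001 to 101936000, spanned from Krt7 to Krt79. On chromosome 11 the first of the 6 KO regions took in only 1.29% of the Krt222 body and reached past Krt24. The others lay over Krt27 and Krt28, over the keratin-associated protein genes, and from Krt9 to Krt42.

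These KO calls lay under the median signal of their library, and the difference depends on how the libraries are matched. Their signals, as made by the authors, ran from 4.34 to 7.56, under the library median of 8.52. In this library, signal times the number of 1 kb bins was whole for 100% of regions on chromosomes 1 to 9 and X. On chromosomes 11 and 15 it was whole for 9.30%, so signals there may be on another scale. With a signal of at least 3 the difference between genotypes was wider, at 0.868% and 38.7% of the type I cluster and 1.17% and 73.6% of the type II cluster. When each library was reduced to its 300 Mb of strongest regions, which needs a signal of 7.65 in KO and 3.03 in WT, cover was 0.868% in WT and 0% in KO for the type I cluster. For the type II cluster it was then 1.17% and 0%, so the direction turned. The median and the 300 Mb cut pool all chromosomes, and the part of a differing signal scale was not tested.

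**Figure D2:**
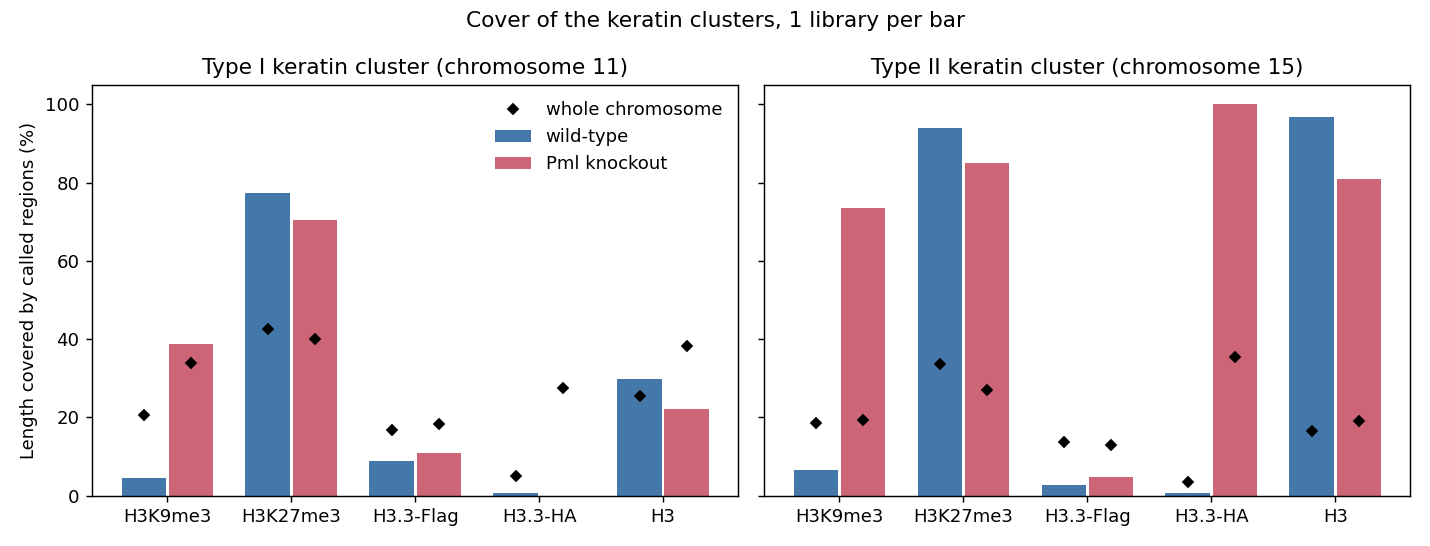
Percent of each keratin cluster covered by called regions, for 5 ChIP targets, in wild-type (blue) and Pml knockout (red), 1 library per bar, with black diamonds for the same library over the whole chromosome. H3K9me3 stands at 4.44% and 38.7% in the type I cluster and at 6.44% and 73.6% in the type II cluster, while H3K27me3 stays between 70.6% and 94.0%. The bar at 100% for H3.3-HA is a single faint call.

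The KO H3K9me3 calls lay on top of H3K27me3. In both clusters and both genotypes 100% of the H3K9me3 length was also called for H3K27me3 in the same genotype, and 100% of the KO length had been H3K27me3 in WT. Over the analysed genome these shares were 48.9% in WT and 75.8% in KO for the same genotype, and 66.1% of the KO length had H3K27me3 in WT. The 100% has to be read beside the H3K27me3 cover itself. That was 77.3% (WT) and 70.6% (KO) of the type I cluster and 94.0% and 85.0% of the type II cluster. Over the analysed genome it was 37.4% and 39.6%, so less overlap was to be had there. Seen from the other mark, H3K9me3 lay on 5.74% of the H3K27me3 length of the type I cluster in WT and 54.8% in KO. In the type II cluster it lay on 6.85% and 86.6%, and over the genome on 42.6% and 54.7%. The region from Krt9 to Krt42, on chromosome 11 from 100170001 to 100267000, was called with the same first and last base for both marks in KO. Single libraries cannot tell both marks on 1 chromatin fibre from marks in different cells.

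By gene, 1 of 45 members (Krt9) had at least 0.5 of its body covered by H3K9me3 in WT, against 19.2% of 21523 protein-coding genes. In KO there were 24, against 25.4%. The covered share was higher in KO by at least 0.5 in 23 members, against 13.2% of genes, and lower by as much in 0, against 7.42%. Krt1 and Krt2 of the upper epidermis and Krt5 and Krt14 of its basal layer each went from 0% to 100%. Among members covered by H3K27me3 and not by H3K9me3 in WT, 23 of 40 were covered by H3K9me3 in KO, against 38.3% of 5331 genes chosen the same way. Of these 23, 7 lay in the type I cluster (Krt14, Krt16, Krt17, Krt24, Krt27, Krt28 and Krt42). The other 16 lay in the type II cluster (Krt1, Krt2, Krt4, Krt5, Krt7, Krt71 to Krt77, Krt79, Krt82, Krt84 and Krt86). Both marks together covered 1 member in WT and 24 in KO, against 8.87% and 17.8% of genes.

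By group, of the 9 inner root sheath keratins 7 were covered by H3K9me3 in KO, of the 18 stratified-epithelial keratins 12, of the 10 hair keratins 3 and of the 6 simple-epithelial keratins 1. The share over all genes was 25.4%, so the hair keratins were near it. By place, 8 of 25 members of the type I cluster and 16 of 20 of the type II cluster were covered. The 3 hair keratins (Krt82, Krt84 and Krt86) all lie in the type II cluster, and group was not separated from place. Krt8 went the other way, with H3K9me3 over 30.0% of its body in WT and 0% in KO. Of the 4 members with an FPKM of at least 1 in any table, only Krt7 had H3K9me3 in KO, over 50.7% of its body, and 23 of the other 41 members were covered.

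**Figure D3:**
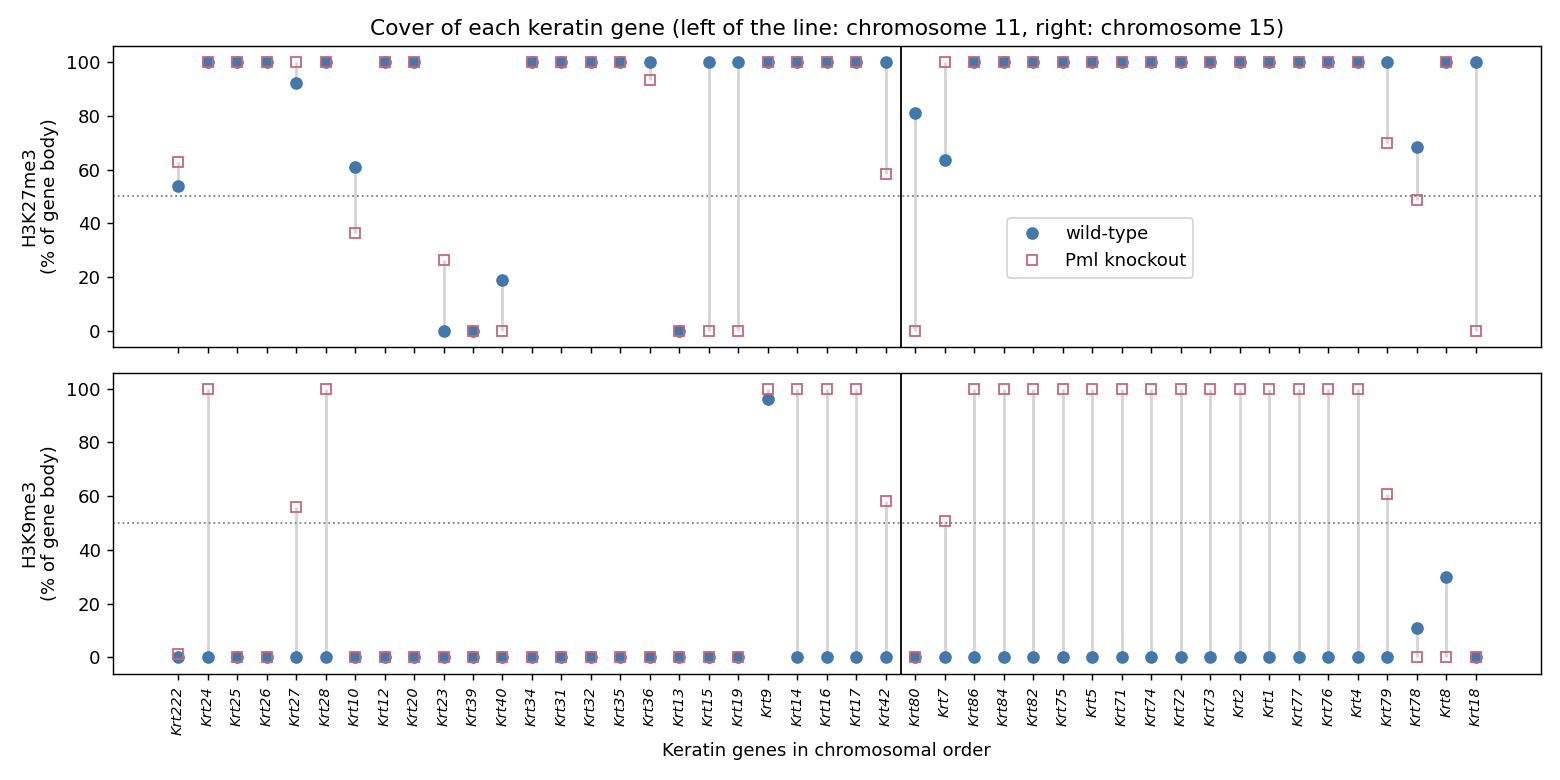
Percent of each keratin gene body covered by H3K27me3 (top) and H3K9me3 (bottom) in wild-type (filled blue circles) and Pml knockout (open red squares), 1 library each, for 45 genes in chromosomal order with the chromosome 11 cluster left of the line. H3K27me3 goes from 100% or 81.0% to 0% at Krt15, Krt19, Krt80 and Krt18, and H3K9me3 is higher by at least 50 points at 23 genes.

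H3K27me3 differed most at the ends of the type II cluster and at 1 pair of neighbours in the type I cluster. Of 45 members 41 were covered in WT, against 33.6% of genes, and 35 in KO, against 32.2%. The 41 include Krt10 (61.1% in WT, 36.5% in KO), where the calls lay wholly upstream of its listed start. The covered share was lower in KO by at least 0.5 in 4 members (Krt15, Krt18, Krt19 and Krt80), against 5.37% of genes, and higher by as much in 0, against 4.45%. Krt15, Krt18 and Krt19 went from 100% to 0% and Krt80 from 81.0% to 0%. Krt15, a basal-layer keratin, and Krt19 are neighbours under 1 WT region of 19 kb on chromosome 11, bases 100127001 to 100146000, signal 13.7, with no KO counterpart. Krt80 and Krt18 stand at the opposite ends of the type II cluster, and their WT regions were 23 kb from 101343001 to 101366000 (signal 7.51) and 52 kb from 102019001 to 102071000 (signal 14.3).

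Krt19 and Krt80, 2 of these 4 genes, are also the members that were at least 2-fold higher in numbered KO RNA. In the unnumbered pair Krt80 differed by only 0.24, and the members called were Krt19 and Krt7. Krt18 had more RNA in KO in both pairs, from 0 to 0.373 and from 0.508 to 0.633. On the log2(FPKM + 1) scale, which understates the change of low genes, the differences were 0.46 and 0.11. A WT value of 0 gives no FPKM ratio for the numbered pair. Krt15 RNA was listed at 0 in both WT tables and at 0.00303 and 0.0622 in KO. Krt7 was different. Its body was covered over 63.7% by H3K27me3 in WT and 100% in KO, while its RNA was higher in KO. RNA and ChIP came from cells handled apart, and no test of a link between them was made. Krt80 passed the FPKM filter of the numbered pair only through KO. How many of all genes with a lower H3K27me3 share were also higher in RNA was not counted.

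Gene starts were known for 34 of the 45 members, from the RefSeq promoter table of GRCm38.p6, the assembly of mm10. Windows of 1 kb on each side of the start gave a like count to gene bodies. For H3K27me3, 29 windows against 30 bodies were covered in WT and 26 against 27 in KO, and for H3K9me3, 0 against 1 and 15 against 18. The genes behind the H3K27me3 counts were not the same. Windows of Krt18, Krt40, Krt42 and Krt79 went from 100% in WT to 0% in KO, and that of Krt7 from 0% to 100%. Of these, Krt18 alone lost its body cover by at least 0.5. The listed starts of Krt10 (99389364) and Krt78 (101954287), both on the minus strand, lie well inside the bodies used here. Those bodies end at 99397449 and 101996624, so body and start follow different extents of these genes. No start was known for Krt15, Krt19 and Krt80, so their body losses were not checked at starts. Krt13 had 2 starts, of which the first listed was used. With the other, H3.3-Flag covered 50% of its window in both genotypes, which would add 1 to the H3.3-Flag windows. The 19 genes on chromosome 11 were all on the minus strand. On chromosome 15, 13 were on the minus strand and 2 (Krt7 and Krt18) on the plus strand.

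The sequences before 4 starts are shown because the calls at these starts differed or, for Krt10, because H3.3-Flag was called over 31.85% of its window in both genotypes. That Krt10 call ended at base 99389000, inside the gene, so none of the bases printed for Krt10 lie under it. Other starts differed too and are not shown, among them Krt40, Krt42 and Krt79 above and Krt34, with 0% H3.3-Flag in WT and 77.65% in KO. The window of Krt7 went from 0% to 100% H3K27me3, that of Krt18 from 100% to 0%, and that of Krt31, a hair keratin, from 0% to 100% H3.3-Flag. The choice was made after these values were seen. Each is the 250 bases before the start, 5′ to 3′ on the gene's strand, from RefSeq, with capitals for matches to a TATA box, an Sp1 box, an AP-1 site or an E-box on either strand, spelled out after the sequences.
Krt7 (chr15:101412153-101412402, plus strand): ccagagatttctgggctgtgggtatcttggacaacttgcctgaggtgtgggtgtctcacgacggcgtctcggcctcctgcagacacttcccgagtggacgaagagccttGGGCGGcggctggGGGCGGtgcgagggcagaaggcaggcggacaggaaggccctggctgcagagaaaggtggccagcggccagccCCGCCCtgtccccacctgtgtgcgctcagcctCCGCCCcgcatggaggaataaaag
Krt18 (chr15:102027966-102028215, plus strand): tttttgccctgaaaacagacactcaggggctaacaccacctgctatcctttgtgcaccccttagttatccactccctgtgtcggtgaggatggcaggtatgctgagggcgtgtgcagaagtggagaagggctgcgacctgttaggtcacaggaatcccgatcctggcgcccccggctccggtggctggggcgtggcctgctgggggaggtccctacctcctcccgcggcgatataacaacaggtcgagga
Krt10 (chr11:99389365-99389614, minus strand): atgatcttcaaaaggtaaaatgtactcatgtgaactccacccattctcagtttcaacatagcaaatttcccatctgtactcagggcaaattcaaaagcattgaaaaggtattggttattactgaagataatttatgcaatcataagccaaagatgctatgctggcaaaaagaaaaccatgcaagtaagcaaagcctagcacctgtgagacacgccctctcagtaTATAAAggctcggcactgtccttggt
Krt31 (chr11:100050552-100050801, minus strand): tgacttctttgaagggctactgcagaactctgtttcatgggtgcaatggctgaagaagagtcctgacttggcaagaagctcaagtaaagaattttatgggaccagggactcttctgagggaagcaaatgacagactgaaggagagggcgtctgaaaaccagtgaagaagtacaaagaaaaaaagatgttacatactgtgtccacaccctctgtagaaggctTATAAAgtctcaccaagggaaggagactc

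The promoters of the simple-epithelial genes Krt7 and Krt18 held 16 and 12 CpG, and those of Krt10 and Krt31 held 2 and 1. The median was 4 over the 34 keratin promoters and 6 over all 27025 promoters. The TATA box, TATAAA, was found in 16 of 34 keratin promoters (47.1%) against 13% of all, and in Krt10 and Krt31 it began 26 and 29 bases before the start. The Sp1 box, GGGCGG, was found in 2 of 34 (5.88%) against 32.9% of all, and 4 matches were in Krt7. The AP-1 site, TGAGTCA, was found in 0 of 34 against 4.43% of all, and the E-box, CACGTG, in 3 (8.82%) against 6.05%. A match is a description of letters and not a bound site, and Krt19 and Krt80 are not in the table.

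H3.3-Flag was sparse in both clusters and mostly shared. It covered 8.87% of the type I cluster in WT and 11% in KO, against 16.9% and 18.4% of chromosome 11. In the type II cluster it covered 2.78% and 4.83%, against 13.8% and 13.0% of chromosome 15. Of 22 WT regions in the type I cluster 18 were touched by a KO region, and of 6 in the type II cluster 5. A region touched 7 members in WT, against 56.1% of genes, and 8 in KO, against 50.9%, and 7 genes (Krt10, Krt13, Krt16, Krt31, Krt39, Krt78 and Krt80) were in both sets.

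Krt10 carried the strongest WT H3.3-Flag call of the clusters, bases 99385001 to 99389000 of chromosome 11, with the same bounds in KO. Its signal was 103 (WT) and 43.2 (KO), and it covered 30.7% of the annotated gene body in both. That body runs from 99385254 to 99397449, well upstream of the listed start at 99389364. The share of the part that follows the listed start was not counted. H3.3-HA was called at the same gene in WT. Krt80 had a Flag call over its upper end from 101368001 in both genotypes, 3 kb long in WT and 5 kb in KO, and an HA call in WT.

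Krt19 had no H3.3-Flag over its body in either genotype. In KO alone, a region of 3 kb from 100146001 to 100149000 had a signal of 25.7. It began 75 bases beyond the highest coordinate of the gene (100145926), next to where the WT H3K27me3 region had ended. No start was listed for Krt19. The 19 members of chromosome 11 with a known start were all on the minus strand, where the start is at the highest coordinate. In WT the nearest H3.3-Flag region was 19810 bases away. Krt16 was covered in both genotypes and Krt31 in KO, against 21.4% of genes in WT and 22.5% in KO. Krt31 was the 1 member with a Flag share higher in KO by at least 0.5, against 2.60% of genes (0 were lower, against 2.36%), from 9.09% to 100% of its body. That KO region had a signal of 4.56, under the KO library's median of 15.9 over all chromosomes. Signals on chromosome 11 may be on another scale than those on chromosomes 1 to 9 and X. Krt16 lay inside longer calls, of 17 kb in WT and 14 kb in KO, with signals of 20.3 and 19.5. It is closely similar to other type I keratins, and whether reads there were placed correctly was not tested.

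**Figure D4:**
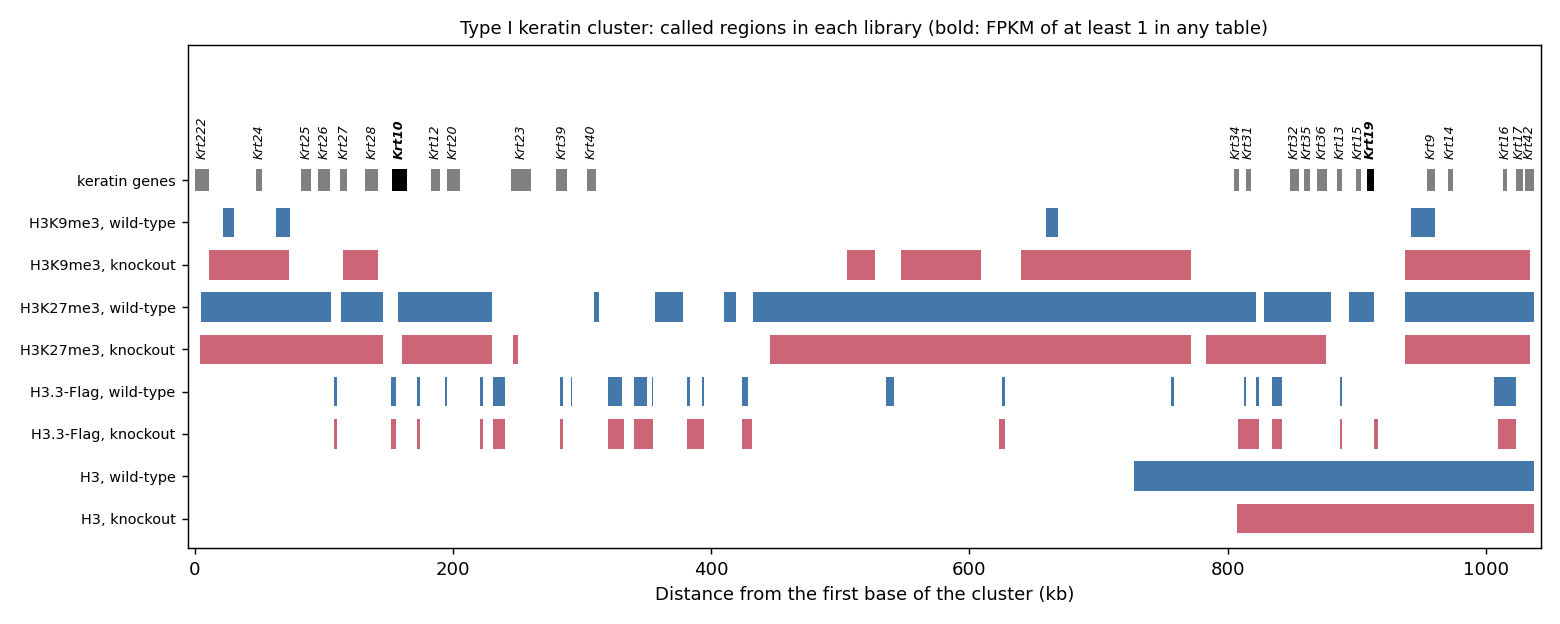
Called regions in the type I keratin cluster for 4 ChIP targets, wild-type in blue and Pml knockout in red, with keratin genes on top and distance from the first base of the cluster in kb on the x axis. The wild-type H3K27me3 block over Krt15 and Krt19 is missing in knockout, where an H3.3-Flag call stands just right of Krt19, and knockout H3K9me3 blocks lie within H3K27me3 blocks.

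H3.3-HA gave opposite pictures in the 2 clusters. In the type I cluster it covered 0.578% in WT and 0% in KO, and in the type II cluster 0.731% in WT and 100% in KO. The KO cover was 1 region of 1670 kb that reached beyond the cluster on both sides, with a signal of 1.08. It covered all 20 members on chromosome 15, and 0 members were covered in WT, against 27.1% of genes in KO and 8.73% in WT. The share was higher by at least 0.5 in these 20, against 21.1% of genes, and none was left with a signal of at least 3. The H3.3-Flag library of the same genotype covered 4.83% of the same cluster.

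Total H3 regions covered 29.9% of the type I cluster in WT and 22.2% in KO, and 96.8% and 81.0% of the type II cluster. Chromosome 11 as a whole had 25.4% and 38.3%, so it was higher in KO where its keratin cluster was lower, and chromosome 15 had 16.6% and 19.1%. By gene, 32 members were covered in WT, against 23.8% of genes, and 31 in KO, against 35.6%. Krt18 was covered in KO alone, where 15.6% of genes were higher by at least 0.5. Krt5 and Krt34 were lower by as much, against 3.76%. An H3 call was therefore present over most of the type II cluster, where the H3K9me3 difference was widest, and its part in that difference was not tested.

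**Figure D5:**
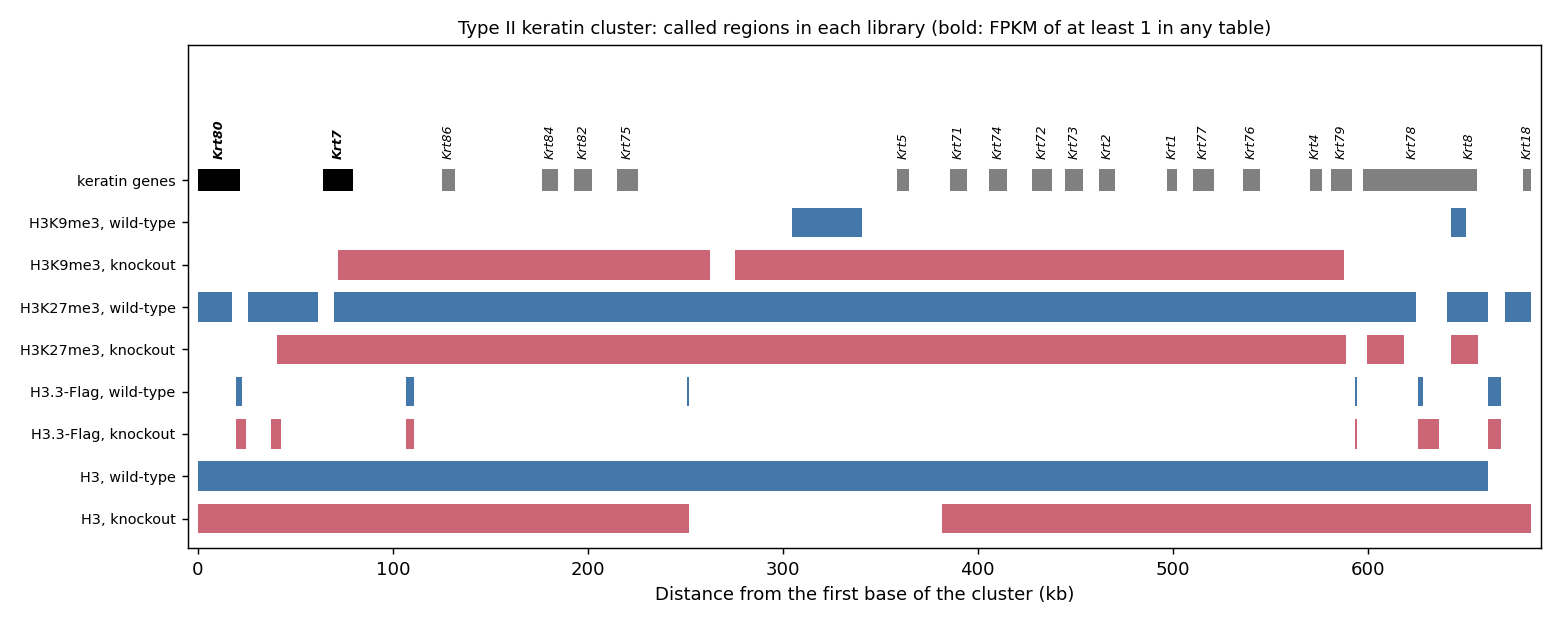
Called regions in the type II keratin cluster for 4 ChIP targets, wild-type in blue and Pml knockout in red, with keratin genes on top and distance from the first base of the cluster in kb on the x axis. Knockout H3K9me3 runs in 2 blocks of 191 and 312 kb from Krt7 to Krt79, inside the 548 kb block of H3K27me3, and the wild-type H3K27me3 blocks at Krt80 and Krt18 are missing in knockout.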

How the data were processed

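ChIP (12 libraries) and RNA (8 samples) were used. The submitters' processing notes name the build mm10 and the tools TopHat2 2.0.8b, Bowtie 1.0.0, Cuffdiff 2.2.1 and Cufflinks 2.2.1, without their roles. The caller of the regions is not given in the sources used here. FPKM values were deposited by the authors; read totals were not used here, so depth is unknown and no detection limit is given. The signal and the score of each region were made by the authors, on a scale not stated. Signal times the number of 1 kb bins was whole (within 0.01, or 0.01% of values over 100) for 100% of regions on chromosomes 1 to 9 and X but for at most 32.7% per library on chromosomes 11 and 15, so the same minimum may select differently there.

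The KO value minus the WT value of log2(FPKM + 1) was taken for genes with an FPKM of at least 1 in either genotype. Lines naming several genes (267 or 271 per table) and names on more than 1 line (127 or 137) were left out. Genes were placed by RefSeq GRCm38.p6, which matched all 45 members. Whole-chromosome and genome shares ran from base 3000000 to the last annotated gene on chromosomes 1 to 19 and X. With 1 library or pooled table per group no test was possible. Other FPKM minimums, scalings, signal minimums, cluster margins and covered shares were tried. Functions were tested on simulated data. Named genes were members with an FPKM of at least 1 in any table, the highest of the others, and members whose covered share differed by at least 0.5. From further lists, members differing at least 2-fold the same way in both pairs were to be named, otherwise the highest. Members, lists and rules were chosen with earlier results of these data known. Python 3.11.15, numpy 2.4.6, pandas 2.3.3 and matplotlib 3.10.9 were used.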

Additional observations from a re-analysis of the deposited data

Results flagged for a closer look

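Krt10 differed in opposite directions between the pairs of RNA tables, with 0.40 (KO minus WT, log2(FPKM + 1)) for the numbered tables and -0.21 for the unnumbered ones. Each direction rests on 1 table per genotype, both differences are under 2-fold, and the difference between the pairs was not tested.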

How the results depend on the processing

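No paired analysis was possible because the numbered RNA samples were pooled into 1 column per genotype, and for the same reason no sample could be left out. Of 125 alternative values, 76 of the main results and 28 of single genes kept their direction and stayed within the limits set. With an FPKM of at least 5, 1 keratin gene was higher by the numbered tables and 0 by the unnumbered ones, since fewer genes were tested. Rescaling to an equal total without ribosomal protein genes gave 5 in the numbered pair and brought Krt10 to 1.06. With the 300 Mb of highest signal, the KO minus WT difference in H3K9me3 cover turned to -0.87 percentage points in the type I cluster and -1.17 in the type II cluster. For H3K27me3 it was then -53.4 and -4.10, and 22 members were covered by H3K27me3 in KO, while 0 were covered by H3K9me3 in either genotype. With a signal of at least 3, H3K27me3 differed by -15.7 in the type I cluster, H3.3-HA turned to -0.73 in the type II cluster with 0 members covered in KO, and 0 members were covered by H3K9me3 in WT. With 50 kb added on each side of the type II cluster, H3K27me3 differed by -14.9 and H3 by -7.40. With a covered share of at least 0.25, 2 members were covered by H3K9me3 in WT and 2 by H3.3-Flag in WT. At gene starts, 0 windows were covered by H3K9me3 in WT and 2 by H3.3-Flag in KO. Where no value bears on the cause of such a move, the cause was not tested. Unknown depth limits all values near 0.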
